A study of Homo sapiens with 10 samples.

Results

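MHC class I antigen presentation is represented here by 9 genes (HLA-B, HLA-C, B2M, TAP1, TAP2, TAPBP, PSMB8, PSMB9 and NLRC5), chosen by name, of 19970 protein-coding genes examined. Rb peaks were assigned to a gene when they touched a promoter, which spanned 2000 bp upstream to 500 bp downstream of any transcript start in GENCODE release 44. All 9 genes had such a peak in at least 1 of 8 Rb libraries, against 31.2% of all genes with none. By role they comprise 2 heavy chains (HLA-B and HLA-C), the light chain (B2M), 3 genes of the peptide transporter and its loading complex (TAP1, TAP2 and TAPBP), 2 immunoproteasome subunits (PSMB8 and PSMB9) and a transcriptional activator of the others (NLRC5).

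Rb chromatin occupancy was mapped by CUT&RUN, in which nuclease guided by an antibody cuts out the DNA next to a chromatin protein. OVCAR-3 and Kuramochi, established lines derived from human high-grade serous ovarian cancer and labelled as wild-type, received DMSO or the CDK2 inhibitor INX-315 at 300 nM for 2 days. Each of the 4 groups had 2 Rb libraries, and each line had 1 control library made with mouse IgG2a from DMSO-treated cells. Each line is a single culture model, no IgG2a library of INX-315-treated cells was used here, and the identity of the cells cannot be checked from peak lists.

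MHC class I molecules display fragments of intracellular proteins to cytotoxic T cells. The proteasome cuts the proteins, and under interferon its catalytic subunits are exchanged for immunoproteasome subunits such as PSMB8 (LMP7) and PSMB9 (LMP2). The peptides are pumped into the endoplasmic reticulum by the heterodimer of TAP1 and TAP2, and tapasin (TAPBP) bridges the transporter to a waiting heavy chain paired with beta-2-microglobulin (B2M). NLRC5 activates many of these genes through a shared promoter module of S, X and Y boxes, whereas interferon acts through interferon response elements and NF-kB sites. Rb, the retinoblastoma tumour suppressor, binds promoters mainly through E2F transcription factors and is released when cyclin-dependent kinases, CDK2 among them, phosphorylate it.

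The promoters that carried the peaks described below are shown as the 250 bases upstream of a RefSeq start (GRCh38.p14), written 5′ to 3′ on the strand of the gene. Capitals mark matches, on either strand, to an E2F core, CCAAT, the X2 box core TGACG, an interferon response core (GAAA, any 2 bases, GAAA) or an NF-kB consensus. PSMB8 is shown because it had the highest peaks of the set, TAP1 and PSMB9 because they share 1 promoter, B2M because it had peaks in 7 libraries, and HLA-B with HLA-C because their promoters resemble each other.
PSMB8 (chr6:32844680-32844929, minus strand): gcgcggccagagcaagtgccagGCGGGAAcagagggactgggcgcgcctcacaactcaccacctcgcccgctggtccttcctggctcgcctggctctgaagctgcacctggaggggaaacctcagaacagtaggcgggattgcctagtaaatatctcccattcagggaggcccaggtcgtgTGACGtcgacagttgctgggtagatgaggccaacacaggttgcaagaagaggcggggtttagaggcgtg
TAP1 (chr6:32853705-32853954, minus strand): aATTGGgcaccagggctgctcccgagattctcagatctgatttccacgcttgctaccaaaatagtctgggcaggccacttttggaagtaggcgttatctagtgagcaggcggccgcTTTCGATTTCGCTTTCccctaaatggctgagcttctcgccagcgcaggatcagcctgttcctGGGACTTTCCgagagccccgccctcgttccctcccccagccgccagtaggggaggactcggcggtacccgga
PSMB9 (chr6:32853942-32854191, plus strand): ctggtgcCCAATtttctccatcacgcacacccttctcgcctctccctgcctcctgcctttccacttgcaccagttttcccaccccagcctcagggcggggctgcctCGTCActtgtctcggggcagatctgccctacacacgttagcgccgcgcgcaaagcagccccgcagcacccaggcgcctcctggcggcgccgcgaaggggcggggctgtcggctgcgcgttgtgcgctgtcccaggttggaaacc
B2M (chr15:44711267-44711516, plus strand): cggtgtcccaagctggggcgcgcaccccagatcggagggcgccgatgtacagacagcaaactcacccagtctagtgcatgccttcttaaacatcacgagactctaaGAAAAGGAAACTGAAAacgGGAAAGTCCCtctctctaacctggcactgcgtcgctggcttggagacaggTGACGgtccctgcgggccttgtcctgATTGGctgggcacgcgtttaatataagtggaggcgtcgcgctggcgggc
HLA-B (chr6:31357180-31357429, minus strand): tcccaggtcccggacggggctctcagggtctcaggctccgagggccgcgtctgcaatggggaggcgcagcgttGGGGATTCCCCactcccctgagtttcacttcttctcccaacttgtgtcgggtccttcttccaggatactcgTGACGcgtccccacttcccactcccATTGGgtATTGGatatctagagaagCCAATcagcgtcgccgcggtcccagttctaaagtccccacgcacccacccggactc
HLA-C (chr6:31272093-31272342, minus strand): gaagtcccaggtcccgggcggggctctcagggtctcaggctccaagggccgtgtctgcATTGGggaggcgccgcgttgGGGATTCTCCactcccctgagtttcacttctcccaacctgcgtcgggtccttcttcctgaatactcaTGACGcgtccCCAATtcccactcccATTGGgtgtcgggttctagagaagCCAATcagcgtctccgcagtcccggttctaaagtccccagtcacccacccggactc

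RefSeq promoters were found for 8 of the 9 genes, and NLRC5 had no entry. Within windows of 300 bp, reaching 50 bases past the start, the E2F consensus (TTTCCCGC, TTTCGCGC, TTTGCCGC or TTTGGCGC) was found in 0 of the 8 genes and in 3.33% of 34961 promoters of that length. An E2F core, these words without their first T, was chosen after the promoter sequences had been seen. It matched only at PSMB8, at positions -228 to -222 from the upstream start, and in 13.0% of all promoters. The cell cycle homology region TTTGAA was likewise found only at PSMB8, before its downstream start, and in 15.2% of all promoters.

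The motifs of immune regulation were spread over the set. TGACG, the core of the X2 box, was found in B2M, HLA-B, HLA-C, PSMB8, PSMB9 and TAP2, which was 6 of 8 genes, against 24.5% of all promoters. The interferon response core was found in 5 genes (B2M, TAP1, TAP2, TAPBP and, across its downstream start, PSMB8) and in 3.58% of all promoters. Only exact matches within the windows were counted, so a gene without a match is not shown to lack an interferon response element. The TAP1 matches lie between the TAP1 and PSMB9 starts but outside the window of PSMB9. The NF-kB consensus, which overlapped itself at HLA-B, was found in 5 genes (B2M, HLA-B, HLA-C, TAP1 and TAPBP) and in 11.3% of all promoters. CCAAT was found in 5 genes (B2M, HLA-B, HLA-C, PSMB9 and TAP1) and in 34.6% of all promoters. PSMB8 and TAP1 each had 2 promoters in the table and so a further window in which to match. The number of CpG dinucleotides at the promoters printed above ran from 17 at PSMB8 to 26 at PSMB9, and the median of all promoters was 14.

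A gene was bound in a group when both libraries had a promoter peak. Under DMSO, 5 of the 9 genes were bound in OVCAR-3 (B2M, TAP1, TAP2, PSMB8 and PSMB9), where 26.8% of all genes were bound. In Kuramochi cells under DMSO, 3 were bound (TAPBP, PSMB8 and PSMB9), against 24.8% of all genes. Under INX-315, 6 genes were bound in OVCAR-3, TAPBP being the addition, against 55.5% of all genes. All but NLRC5, which made 8 genes, were bound under INX-315 in Kuramochi, against 53.2% of all genes.

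A gene was gained when it had a peak in both INX-315 libraries and in neither DMSO library. No gene of the set was gained in OVCAR-3, where 16.2% of all genes were. HLA-B, HLA-C and TAP2, 3 of the 9, were gained in Kuramochi, against 14.0% of all genes. None of the 9 was gained in both lines, against 5.56% of all genes. None was lost, the reverse of a gain, in OVCAR-3 or Kuramochi, where 0.00501% and 0.0150% of all genes were lost. Under the IgG2a antibody no promoter of the set had a peak in either line. These control lists held only 25 peaks in OVCAR-3 and 12 in Kuramochi on chromosomes 1 to 22 and X. Few promoters of any gene could therefore hold one, and the absence is no trait of this set.

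Heights were compared next, because presence says nothing of amount. The height at a summit is the number of sequenced fragments covering it, recovered from the listed fold enrichment and p-value, divided by the mean coverage of the library. Mean coverage was 0.495 and 0.501 fragments per base in OVCAR-3 DMSO, 0.307 and 0.421 in OVCAR-3 INX-315, 0.445 and 0.380 in Kuramochi DMSO, and 0.405 and 0.216 in Kuramochi INX-315. The INX-315 libraries were thus the shallower ones in both lines on average, and their lists were the longer ones, with 13031 to 17281 peaks against 5221 to 8794 under DMSO. At these depths most summits of the set rested on fewer than 30 fragments, so the 95% Poisson intervals given for fragments, which cover counting error only, were wide. For differences on the log2 scale, a library without a peak was set at the lowest height called anywhere in it, which lay between 9.51 and 13.9 multiples of mean coverage.

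**Figure D1:**
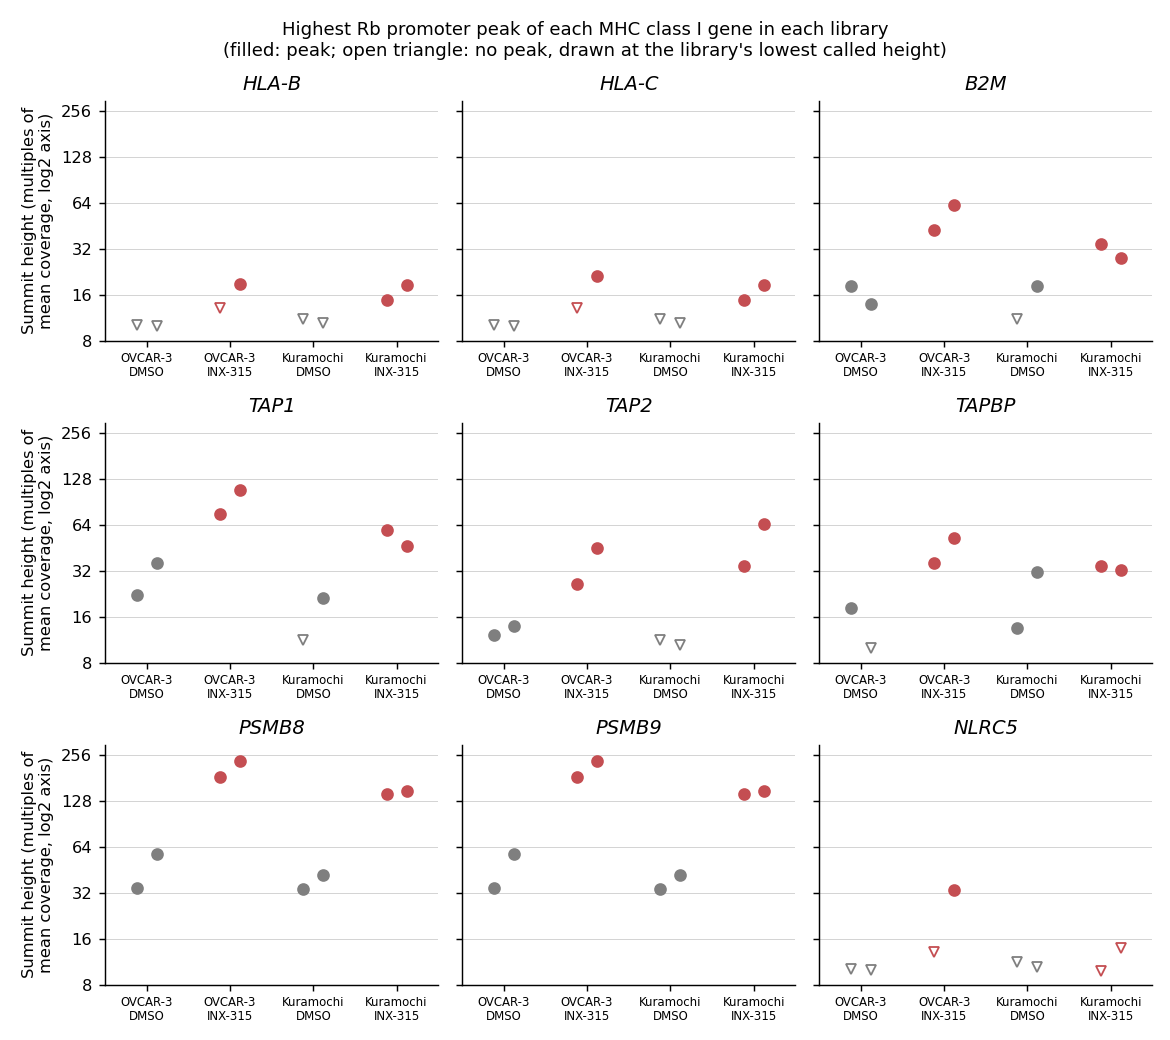
Height of the highest Rb promoter peak of each gene (log2 axis, multiples of the library's mean coverage) in each of the 8 Rb libraries, with grey for DMSO and red for INX-315. Filled circles are called peaks and open triangles are libraries without a peak, drawn at the lowest height called in them. PSMB8 lay between 33.7 and 57.8 with DMSO and between 143 and 235 with INX-315, whereas no HLA-B or HLA-C peak exceeded 21.4.

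PSMB8, the chymotrypsin-like catalytic subunit of the immunoproteasome, had the highest peaks of the set and a peak in all 8 libraries. In OVCAR-3 its height was 34.4 and 57.8 multiples of mean coverage with DMSO, and 183 and 235 with INX-315. Kuramochi gave 33.7 and 42.1 with DMSO, and 143 and 148 with INX-315. Every INX-315 library exceeded every DMSO library, in both lines and across them. The log2 difference between INX-315 and DMSO was 2.22 in OVCAR-3 (SD 0.53 among DMSO and 0.26 among INX-315 libraries, n = 2 each), a ratio of 4.65. It was 1.95 in Kuramochi (SD 0.23 and 0.03, n = 2 each), a ratio of 3.87.

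The fragments behind these heights numbered 17 and 29 with DMSO and 56 and 99 with INX-315 in OVCAR-3. Kuramochi had 15 and 16 fragments with DMSO and 58 and 32 with INX-315. In OVCAR-3 the 95% interval of the higher DMSO count, 19.4 to 41.6, lay just below that of the lower INX-315 count, 42.3 to 72.7, before any correction for depth. In Kuramochi the interval of the 32 fragments of INX-315 replicate 2, 21.9 to 45.2, overlapped those of both DMSO libraries, 8.40 to 24.7 and 9.15 to 26.0, and that INX-315 library was the shallowest of the 8. Ranked by p-value within its own list, the PSMB8 peak stood at the 98.0th percentile in both OVCAR-3 INX-315 libraries and at the 84.4th and 94.5th under DMSO. In Kuramochi it stood at the 94.4th and 91.5th percentile under INX-315 and at the 73.3rd and 76.5th under DMSO. These lists differ in length, and a longer list adds weak peaks below a strong one. The percentiles therefore describe each list and are not read as a change between treatments.

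PSMB8 has 7 annotated starts on the minus strand of chromosome 6. The 8 summits lay between 120 bp downstream and 10 bp upstream of the start furthest upstream (position 32844679, hg38), not at the MANE Select start, the reference transcript of the gene, which lies 632 bp further downstream at 32844047. The PSMB8 sequence printed above begins upstream of the former start, and its E2F core match lay outside the range of the summits. Under DMSO the peak was 586 and 899 bp wide in OVCAR-3 and 239 and 347 bp wide in Kuramochi. With INX-315 it was 1530 and 1659 bp wide in OVCAR-3 and 754 and 647 bp wide in Kuramochi. Each of these widths exceeded both DMSO widths of its line. Widths were not compared over all genes, so the widening is not read as a trait of PSMB8. The antisense gene PSMB8-AS1 and an upstream start of PSMB9 share this peak, and peaks carry no strand, so the 3 genes cannot be told apart there.

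PSMB9, an immunoproteasome subunit induced together with PSMB8, took its highest promoter peak in each library from PSMB8 for this reason. Its own MANE Select start at 32854192, on the plus strand, lies 488 bp from the MANE Select start of TAP1 at 32853704, on the minus strand, and both genes are transcribed outward from the interval between them. TAP1 encodes 1 of the transporter subunits. The 7 summits found in this interval lay 166 to 398 bp upstream of the TAP1 start, between both starts, so every value that follows for TAP1 is also that of PSMB9 at its MANE Select start. There PSMB9 was bound in both groups of OVCAR-3 and in Kuramochi under INX-315, and in Kuramochi under DMSO its bound call came from the PSMB8 peak alone.

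In OVCAR-3 the height at TAP1 was 22.2 and 35.9 with DMSO, and 75.0 and 109 with INX-315. In Kuramochi there was no peak in DMSO replicate 1, a height of 21.1 in DMSO replicate 2, and heights of 59.3 and 46.3 under INX-315. The INX-315 libraries were above the DMSO libraries in both lines, with log2 differences of 1.68 in OVCAR-3 and 1.77 in Kuramochi. The Kuramochi value used the lowest callable height for the library without a peak. That region also had a raised local background, which the caller takes from the IgG2a control. It was 4.38 times the mean coverage in Kuramochi DMSO replicate 2 and 1.79 to 2.16 times in the other libraries with a peak. The part this played was not tested.

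**Figure D2:**
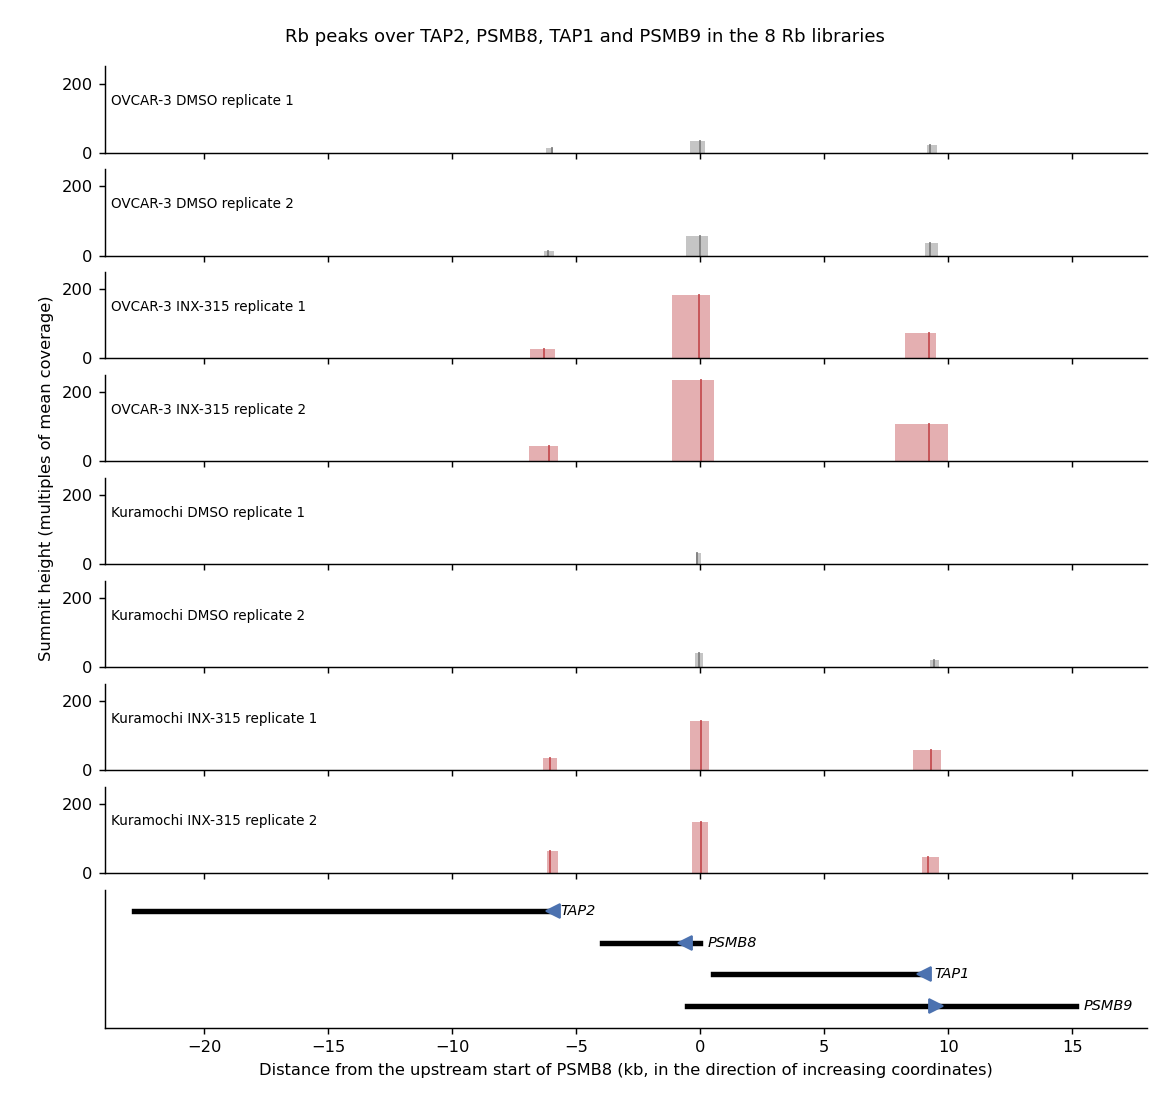
Rb peaks over the segment of chromosome 6 with TAP2, PSMB8, TAP1 and PSMB9, in kb from the upstream start of PSMB8. Each box spans 1 called peak of a library and reaches its summit height (multiples of mean coverage), the line marks the summit, black bars are genes and blue arrowheads MANE Select starts. Peaks sat at 3 places, near the start of TAP2, at PSMB8 and between TAP1 and PSMB9, and the PSMB8 box was the tallest in every library.

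TAP2, the partner of TAP1 in the transporter, was bound under DMSO in OVCAR-3, whereas neither Kuramochi DMSO library had a peak. OVCAR-3 had heights of 12.1 and 14.0 with DMSO and 26.1 and 45.2 with INX-315. Kuramochi reached 34.6 and 64.8 with INX-315, which made TAP2 a gained gene in that line. The log2 difference was 1.40 in OVCAR-3 and 2.12 in Kuramochi, the latter against the lowest callable height in both DMSO libraries. The OVCAR-3 DMSO peaks rested on 6 and 7 fragments (95% intervals 2.20 to 13.1 and 2.81 to 14.4), close to the 5 fragments of the weakest peaks of those libraries. A difference between lines in the untreated state was therefore not detectable at this depth.

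TAPBP, encoding tapasin, was the least regular of the loading genes. OVCAR-3 DMSO replicate 1 had a height of 18.2, DMSO replicate 2 had no peak, and the INX-315 libraries had 35.9 and 52.3. Kuramochi gave 13.5 and 31.6 with DMSO and 34.6 and 32.4 with INX-315. The groups did not overlap, but in Kuramochi the lowest INX-315 library exceeded the highest DMSO library by less than the DMSO libraries differed. The log2 difference was 1.69 in OVCAR-3 and 0.70 in Kuramochi. On the fold enrichment as listed, which is taken against the local background, the Kuramochi difference was 0.12. A further peak inside the gene, near an internal start, was called in 3 Kuramochi libraries and equalled the one at the MANE Select start in height in DMSO replicate 2 and INX-315 replicate 2.

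B2M, the light chain shared by all class I molecules and the only member on chromosome 15, had peaks in 7 libraries. Heights in OVCAR-3 were 18.2 and 14.0 with DMSO and 42.4 and 61.8 with INX-315. In Kuramochi, DMSO replicate 1 had no peak, DMSO replicate 2 had 18.4, and the INX-315 libraries had 34.6 and 27.8. The INX-315 libraries were the higher ones in both lines, by 1.68 on the log2 scale in OVCAR-3 and 1.11 in Kuramochi. The Kuramochi value used the lowest callable height for DMSO replicate 1. In that line DMSO replicate 2 had 7 fragments and the INX-315 libraries 14 and 6, so their order rested on scaling for depth. The listed fold enrichment was 5.80 in DMSO replicate 2 and 10.7 and 5.76 under INX-315, so the groups overlapped on that scale. The promoter is shared with PATL2, which is transcribed from the opposite strand, so the peak could belong to either gene.

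HLA-B and HLA-C, which encode the classical heavy chains studied here, had peaks in 3 libraries each, none of them higher than 21.4 multiples of mean coverage. HLA-B had no peak in either DMSO library of OVCAR-3, none in INX-315 replicate 1 and a height of 19.0 in INX-315 replicate 2. HLA-C had the same presence and a height of 21.4 in that library. In Kuramochi both genes had no peak under DMSO and heights of 14.8 and 18.5 under INX-315.

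In OVCAR-3 INX-315 replicate 2 the HLA-B peak was made of 8 fragments and the HLA-C peak of 9. In the Kuramochi INX-315 libraries each gene had 6 and 4 fragments. An interval of 1.09 to 10.2 belongs to 4 fragments, and all 6 peaks stood between the 5.87th and 26.3rd percentile of their lists. Without scaling for depth the Kuramochi log2 difference was 0.13 for each gene, since the weakest peaks of the DMSO libraries had 5 and 4 fragments, and with scaling it was 0.61. With a q-value of at most 0.001 neither gene was bound in Kuramochi under INX-315. The HLA-C peak of replicate 1 passed that limit, with a −log10 q of 3.36, and the other 3 Kuramochi peaks lay between 2.13 and 2.59.

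The 2 promoters printed above aligned with 89.0% identity over 254 columns, and the longest identical run was 25 bases. How reads were divided between stretches that are alike, or placed where the alleles of the lines differ from the reference, was not tested, and the values of both genes are uncertain to that extent. No list had a peak on an alternate sequence of chromosome 6. In OVCAR-3 the HLA-C peak lay in a region with a local background of 2.24 times the mean coverage and the HLA-B peak in one of 1.04 times.

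NLRC5, the activator of the set, had a peak in only 1 of the 8 libraries, OVCAR-3 INX-315 replicate 2. It spanned chr16:56989460-56989780 (hg38), with its summit 6 bp downstream of an annotated start, and reached a height of 33.3 from 14 fragments (95% interval 7.65 to 23.5). The other OVCAR-3 INX-315 library had no peak there, and no Kuramochi library had one. A single library gives no replicate support for Rb at NLRC5.

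For each gene the INX-315 and DMSO libraries were compared within lines by an exact two-sided permutation test over 36 arrangements, which cannot give a p below 0.0556. The mean difference over both lines ran from 0.58 for NLRC5 and 0.63 for HLA-B to 2.08 for PSMB8. The exact permutation p was 0.0556, the smallest possible, for 8 genes and 0.167 for NLRC5, so no gene could pass 0.05 in this design. For HLA-B and HLA-C it rests on libraries set at their lowest callable height in both lines, INX-315 replicate 1 of OVCAR-3 included. For these 2 genes the exact permutation p was 0.167 with absent libraries at 0 and 0.722 with unscaled fragments, over a range of alternatives from 0.0556 to 0.722. TAP1, TAP2, PSMB8 and PSMB9 had the smallest possible exact permutation p, 0.0556, on each of those scales.

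A gene was higher under INX-315 when both INX-315 libraries stood above both DMSO libraries. With absent libraries at the lowest callable height, 9 genes were higher in OVCAR-3, against 63.6% of all genes, and 8 in Kuramochi, against 57.5%. For HLA-B, HLA-C and NLRC5 the OVCAR-3 call came from depth, since INX-315 replicate 1 had no peak there and its lowest callable height, 13.1, lay above the 10.1 and 9.97 of the DMSO libraries. With absent libraries at 0, on the listed fold enrichment or with unscaled fragments, 6 genes were higher in OVCAR-3. In Kuramochi these scales gave 8, 6 and 4 genes, in that order, and B2M and TAPBP were not among the 6 or the 4. Counts on these scales are not set beside shares of all genes. With absent libraries at the lowest callable height, both lines shared 8 higher genes, against 54.3% of all genes. Where a peak was also required in both INX-315 libraries, a requirement added after the data had been seen, 6 genes were higher in OVCAR-3 against 55.0% of all genes. The same requirement left 8 in Kuramochi against 51.8%. In both lines B2M, TAP1, TAP2, TAPBP, PSMB8 and PSMB9 met it, which is 6 of 9 genes against 46.9% of all genes. No gene of the set was lower in OVCAR-3, against 0.00501% of all genes, and none was lower in Kuramochi, against 0% of all genes.

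The differences at these promoters were set against those of all genes. Among genes with a peak in the line, the median log2 difference of the set was 1.68 over 9 genes in OVCAR-3, and the median of 13091 genes was 1.69. For Kuramochi it was 1.44 over 8 genes, and the median of 12429 genes was 1.43. PSMB8 and PSMB9 entered with the same peak and the same value, 2.22 in OVCAR-3 and 1.95 in Kuramochi. A single peak thus counted for both genes, which raised the medians of the set, and it counted for both among the genes bound and higher above. Relative to the medians of all genes, PSMB8 stood 0.53 higher in OVCAR-3 and 0.52 higher in Kuramochi, at the 82.4th and 82.3rd percentile of all differences. The distance of TAP2 was -0.29 in OVCAR-3, at the 33.0th percentile, and 0.69 in Kuramochi, at the 89.2nd. HLA-B stood at -1.04 and -0.82 from the medians, at the 6.97th and 10.3rd percentile.

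The scale moved all genes together. On the listed fold enrichment, all genes had medians of 1.45 for OVCAR-3 and 1.21 for Kuramochi, and PSMB8 stood 0.38 above its median in each line. With fragments not scaled for depth the medians were 1.22 and 0.95, and the distances of PSMB8 were again 0.53 and 0.52. With libraries without a peak at 0 the medians were 2.38 and 2.30, and the distances of PSMB8 became -0.19 and -0.37, whereas those of HLA-B became -0.22 in OVCAR-3 and 1.84 in Kuramochi. Those last medians include genes whose absent libraries were put at 0. Among genes with peaks in all 4 libraries of a line, as PSMB8 has, OVCAR-3 had a median of 1.77 and Kuramochi one of 1.50, and PSMB8 stood 0.45 above each. With absent libraries at 0 these distances were 0.46 and 0.45. The place of HLA-B relative to the other genes depended on how absent peaks were treated.

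**Figure D3:**
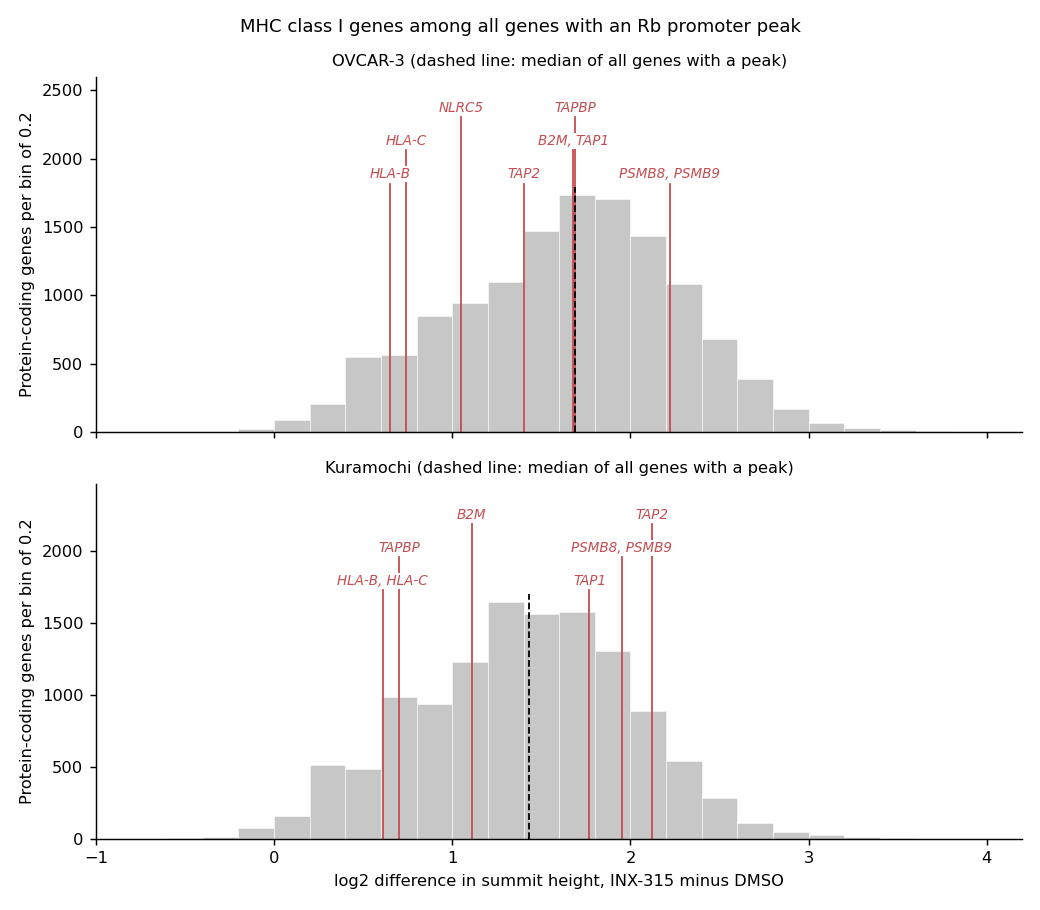
Distribution of the log2 difference in summit height (INX-315 minus DMSO) over all protein-coding genes with an Rb promoter peak in the line, in bins of 0.2, with the MHC class I genes as red lines and the genome-wide median as a dashed line. B2M, TAP1 and TAPBP lay at the median of 1.69 in OVCAR-3, PSMB8 lay above the median in both lines, and HLA-B and HLA-C lay in the lower tail of both.

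The remaining genes of the pathway, in 7 lists with 46 genes, were read by the same rules. The counts that follow stand beside the shares given above for all genes. These were 26.8% in OVCAR-3 and 24.8% in Kuramochi bound under DMSO, 55.5% and 53.2% bound under INX-315, and 16.2% and 14.0% gained. A share of 31.2% had no peak in any Rb library. Lists this short can differ from these shares by a few genes. Among 6 genes of peptide loading and trimming, 3 were bound in OVCAR-3 and 4 in Kuramochi under DMSO, and 4 in each line under INX-315, with 0 gained. The 2 without a peak in any library were TAPBPL, a tapasin relative that edits peptides, and ERAP2, a trimming aminopeptidase. The other immunoproteasome genes are the catalytic subunit PSMB10 and the activator subunits PSME1 and PSME2. In OVCAR-3 3 of these 3 were bound with either treatment, in Kuramochi 2 with DMSO and 3 with INX-315, and 0 were gained. Among the constitutive subunits that PSMB8, PSMB9 and PSMB10 replace, PSMB5 had no peak in any library, 0 of the 3 were bound in OVCAR-3 under either treatment, and 1 was gained in Kuramochi.

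Factors that bind the S, X and Y boxes are encoded by 8 genes. DMSO-treated OVCAR-3 cells had 3 of them bound and Kuramochi cells 5, and with INX-315 each line had 8 bound, with 2 and 1 gained. RFX5, a subunit of the complex on the X box, was the only gene in the 7 lists gained in both lines. It had no peak under DMSO and heights of 45.7 and 40.4 in OVCAR-3 and 54.3 and 55.6 in Kuramochi under INX-315. Of 9 interferon signalling genes, 4 were bound in OVCAR-3 and 3 in Kuramochi under DMSO and 7 in each under INX-315, with 1 and 3 gained.

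The last lists held other antigen presentation genes. Among 5 non-classical class I genes, 0 were bound in OVCAR-3 and 1 in Kuramochi under DMSO, and 3 in each line under INX-315, with 1 and 0 gained. HLA-F and HLA-G had no peak in any library. Of 12 MHC class II genes, 1 was bound in each line under DMSO and 2 under INX-315, with 0 gained, and 10 had no peak in any library. Those 10 included HLA-DRA, HLA-DRB1, HLA-DPA1, HLA-DPB1, HLA-DQA1 and HLA-DQB1, which encode chains of the classical class II molecules. How reads were placed at these genes or at HLA-F and HLA-G was not tested, so an absent peak does not show that Rb was absent. No gene of the 7 lists was lost in either line.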

How the data were processed

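Rb CUT&RUN libraries of OVCAR-3 and Kuramochi cells were analysed from deposited peak lists. The authors aligned reads to hg38 with Bowtie2 2.3.4.1 and called peaks in each library with MACS2 2.2.7.1 at a q-value of 0.05, with the IgG2a library as control and duplicates kept. The deposited lists give, per peak, the fold enrichment (a ratio to local background), the −log10 p-value and the −log10 q-value of the authors' caller, and the summit position. The 9 genes and the 7 lists were chosen with earlier results of these data known. Named list genes were those gained in both lines or without any peak, up to 6 a list.

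From fold and p-value, whole fragments and local background at each summit were recovered (relative tolerance 3e-05) for 98.6% to 99.9% of peaks of each Rb list, after tests on simulated data; for the others, fragments were taken from the fold and the library's mean coverage. Mean coverage was the lowest frequent local background. Promoter overlap was at least 1 bp. The test was an exact two-sided permutation within lines; no count model was run, since no read counts were used here. Same-numbered replicates did not deviate together (Pearson r −0.05 over 5333 genes in OVCAR-3 and −0.00 over 4952 in Kuramochi). Where nothing ties replicates to separate experiments, p-values cover only the spread between these libraries. Promoter sequences came from RefSeq (GRCh38.p14). Python 3.11.15, NumPy 2.4.6, SciPy 1.17.1, Biopython 1.88 and Matplotlib 3.10.9 were used. Alternatives were other promoter windows and starts, a stricter q-value, lists of equal length, other height scales, each library left out in turn, and the replicate block.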

Additional observations from a re-analysis of the deposited data

How the results depend on the processing

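Over 19 alternative settings, 171 height differences were recomputed for the 9 genes and 0 changed sign. Under the main setting, 13063 of 13091 genes with a peak in OVCAR-3 and 12339 of 12429 in Kuramochi had a positive difference. A kept sign is therefore no trait of this set, and several settings left the values of all 9 genes as they were. The counts under other settings, here and below, are not set beside shares of all genes under the same setting. They describe these genes only and do not show whether the set moved differently from other genes. With a q-value of at most 0.001, 3 genes were bound in OVCAR-3 under DMSO in place of 5. In Kuramochi that limit left 2 bound under DMSO and 6 bound and higher under INX-315, and the 2 gained genes were TAP1 and TAP2 in place of HLA-B, HLA-C and TAP2. With the lists of a line shortened to equal length, 3 were bound under DMSO and 4 were higher in OVCAR-3, while in Kuramochi 2 were bound under INX-315, 0 were gained, 1 (TAPBP) was lost, 3 were higher and 2 were higher with a peak in both INX-315 libraries. Shorter lists drop the weaker peaks by construction. With fragments not scaled for depth, 4 genes were higher in Kuramochi (TAP1, TAP2, PSMB8 and PSMB9), also with a peak required in both INX-315 libraries. By percentile rank in the list, 5 were higher in OVCAR-3. Because the lists differ in length between treatments, this count is not read as a change in Rb. The differences on that scale, which are among the 171, carry the same limit.

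Leaving out each library in turn, genes gained in OVCAR-3 ranged from 0 to 3, with 1 (TAPBP) without DMSO replicate 1 and 3 (HLA-B, HLA-C and NLRC5) without INX-315 replicate 1. Genes bound in Kuramochi under DMSO ranged from 3 to 5, with 5 without DMSO replicate 1, and genes gained there from 3 to 5, with 5 without DMSO replicate 2. Genes bound in OVCAR-3 ranged from 5 to 6 under DMSO and from 6 to 9 under INX-315, and genes higher there from 6 to 9. The replicate block, with 16 arrangements, left every difference as it was and gave an exact permutation p of 0.125, its smallest possible, for 8 genes and 0.250 for NLRC5. Around the MANE Select start alone, a setting chosen after seeing the data, 2 genes were bound in Kuramochi under DMSO, and the PSMB9 difference was 1.72 instead of 2.08. With 4 to 26 fragments at most summits outside PSMB8, depth limits the comparison of the weaker peaks, and no p in this design can reach 0.05.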

Other observations

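Outside their promoters the 9 genes had no Rb peak in the gene body in any library. Promoters were drawn around every annotated start, 9 in HLA-C and 28 in NLRC5 for example, and so cover part of each gene body. The share of all genes without such a peak was not computed. Within 50 kb of TAP1, TAP2, PSMB8 and PSMB9, 1 further peak that touched no promoter was called, in OVCAR-3 INX-315 replicate 2. JAK2, the kinase of the interferon gamma receptor, had heights of 28.3 and 33.9 with DMSO and 176 and 288 with INX-315 in OVCAR-3. In Kuramochi JAK2 had no peak under DMSO and heights of 98.8 and 88.0 under INX-315. CIITA, the class II counterpart of NLRC5, had heights of 16.2 and 17.9 with DMSO and 13.1 and 35.7 with INX-315 in OVCAR-3, so its groups overlapped. CANX, encoding the chaperone calnexin, reached 348 and 421 under INX-315 in Kuramochi. JAK2, CIITA and CANX were chosen after their values were seen.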
